A study of Homo sapiens with 4 samples.

Results

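The proteasome subunit genes are 37 genes taken from a fixed list of names: the 7 alpha (PSMA) and 8 beta (PSMB) ring genes of the core, 6 ATPase (PSMC) genes and 3 non-ATPase genes of the base, 8 lid genes, 4 activator (PSME) genes, and the core assembly chaperone POMP. They were found on the arrays through the accession printed for each probe, and all 37 were measured, among 13602 genes with a probe well above background on every array. Their levels in EGF-treated HuCCT1 cells were compared across 4 transfections. HuCCT1 is an established human line of intrahepatic cholangiocarcinoma, a cancer of the bile duct epithelium. The study asked what a miRNA that targets GRB2, an adaptor that links the EGF receptor to RAS, shares with direct silencing of that adaptor.

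Each of the 4 groups was 1 array hybridized with RNA of 1 transfected culture, so there is no replicate and no p-value is given, and having so few arrays limits how precise any difference can be. The miR-376c cells had received Pre-miR-376c, a mimic of the mature miRNA, and the miControl cells a Pre-miR negative control. The siGRB2 cells had received an siRNA against GRB2, and the siControl cells an siRNA that silences no gene. All were transfected with 30 nM of the respective RNA. After 24 h the cells were moved to 0.1% serum with EGF at 5 ng/ml, where they stayed 24 h, and 200 ng of RNA was labelled with 1 dye. No group lacked EGF, so nothing here measures a response to EGF itself.

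The proteasome is the ATP-dependent protease that degrades proteins marked with ubiquitin. Alpha and beta rings stack into a hollow 20S core whose beta subunits carry the active sites, and a 19S cap of base and lid binds the substrate, removes its ubiquitin, unfolds it and feeds it into the core. The core may carry other activators (PSME genes) in place of the cap, and its standard catalytic subunits can be exchanged for inducible ones, of which PSMB10 is the only one among these 37. In mammalian cells the transcription factor NFE2L1 can raise many subunit genes together when proteasome activity is low.

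The sequences below show the transfected miRNA and the stretch before the start of 3 members whose levels are described later: PSMB3 and PSMA3, which code for parts of the core, and PSMD7, which codes for a lid subunit and was measured by 10 spots. They are RefSeq sequences of the GRCh38.p14 build. Capitals mark the seed (bases 2 to 8) in the miRNA. In the 250 bases before a gene start they mark matches to TGACNNNGC, the element bound by NFE2L1 and its relatives, and to CCAAT, which reads ATTGG on the other strand.
hsa-miR-376c-3p, chr14:101039732-101039752, plus strand: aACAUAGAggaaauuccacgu
PSMB3, chr17:38752491-38752740, plus strand: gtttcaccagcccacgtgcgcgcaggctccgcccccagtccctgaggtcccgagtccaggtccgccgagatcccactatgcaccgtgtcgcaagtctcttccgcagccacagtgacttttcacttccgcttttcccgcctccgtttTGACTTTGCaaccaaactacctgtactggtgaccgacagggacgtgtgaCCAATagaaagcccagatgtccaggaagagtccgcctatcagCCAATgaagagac
PSMA3, chr14:58244593-58244842, plus strand: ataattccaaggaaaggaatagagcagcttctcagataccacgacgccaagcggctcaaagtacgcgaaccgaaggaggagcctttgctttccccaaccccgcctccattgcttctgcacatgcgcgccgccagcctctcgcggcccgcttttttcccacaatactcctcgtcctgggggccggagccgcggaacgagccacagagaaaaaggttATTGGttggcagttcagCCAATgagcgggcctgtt
PSMD7, chr16:74296564-74296813, plus strand: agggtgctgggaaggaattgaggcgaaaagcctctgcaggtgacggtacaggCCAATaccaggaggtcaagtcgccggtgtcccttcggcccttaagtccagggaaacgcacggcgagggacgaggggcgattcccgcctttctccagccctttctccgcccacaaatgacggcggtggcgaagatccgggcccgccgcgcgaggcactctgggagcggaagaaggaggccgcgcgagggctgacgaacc

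The table used here held such windows for 32 of the 37 members, 38 windows in all, and none for PSMA7, PSMB1, PSMB6, PSMB7 and PSMD4. TGACNNNGC, read on both strands, was present in 8 of the 38 windows (21.1%) against 10.9% of all 35116 windows of the same length. The 8 were those of the core genes PSMA4 and PSMB3, the cap genes PSMC5, PSMD3 and PSMD12, and the activator genes PSME1, PSME2 and PSME4. In PSMB3 the match began 104 bases before the start. CCAAT was present in 15 windows (39.5%, against 32% of all), and 2 matches each stood before PSMB3 (55 and 13 bases) and PSMA3 (35 and 18 bases). CCGGAAG, the core of an element bound by ETS factors, was present in 8 windows (21.1%, against 8.52%), and TATAAA in 4 (10.5%, against 10.72%). These are matches of letters, windows of 1 gene overlap, and CCAAT was counted on both strands, which share bases before PSMD14.

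A level below is the log2 processed signal of a gene minus the 75th percentile of its array, so 0 is the 75th percentile and 1 unit is a factor of 2. All 44 probes of the 37 genes were well above background on all 4 arrays, none had an outlier flag, and 34 members lay above the 75th percentile on every array, all but PSME1, PSME4 and POMP. The error that the scanner software assigns to a difference between arrays was 0.20 to 0.21 for a gene with 1 probe of 1 spot, and spots of one probe on one array had a median SD of 0.05. Both cover the measurement and not the variation between cultures. The siControl array had the lowest 75th percentile signal (1719, against 1995 to 2689) and the fewest detected probes (21824, against 22540 to 24133). GRB2, measured by 1 spot, had levels of 0.07 with miR-376c, 0.62 with miControl, -0.65 with siGRB2 and -0.10 with siControl, so it was lowest on the siGRB2 array, while siControl and miControl differed by more than siGRB2 and siControl did. The biliary epithelial markers KRT7, KRT19, KRT8, KRT18, EPCAM and SOX9 were detected on all 4 arrays. Of 7 markers of other cell types, APOA1 (hepatocyte), PTPRC and CD68 (leukocyte) and COL1A1 (fibroblast) had a probe well above background on all 4 arrays, PECAM1 (endothelium) on 2, and ALB (hepatocyte) and COL3A1 (fibroblast) on 0. Levels ran from -5.56 to -5.29 for PTPRC (2 of 4 probes used), -4.32 to -3.77 for APOA1 (1 of 2) and -0.96 to -0.46 for CD68. Of the biliary markers, SOX9 was lowest at -1.29 to -0.55 and KRT19 highest at 7.98 to 8.49. COL1A1, with levels of -3.41, -2.40, -2.20 and -2.79 on the miR-376c, miControl, siGRB2 and siControl arrays, was at -1.01 for miR-376c minus miControl and 0.59 for siGRB2 minus siControl.

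With miR-376c, most proteasome genes were slightly higher than with miControl. The difference was above 0 in 31 of the 37 members, against 46.9% of all genes, and its median was 0.19 against -0.02 over all genes. In RNA of a whole culture, a difference in the cells present and one in the RNA per cell cannot be told apart. It reached 2-fold in 0 members, where 1.14% of all genes did, and lay between -0.26 for PSMD2 and 0.65 for PSMB2. PSMB2, a non-catalytic beta subunit, was the only member at least 1.5-fold higher (2.68% of all genes), and 0 were 1.5-fold lower (5.12%). Among genes above the 75th percentile on every array, 28 of 34 members were above 0 against 52.6% of 4646 genes, with medians of 0.19 and 0.02. For 18 of the 37 members the difference was higher by more than the software error, against 22.8% of all genes, and for 1, PSMD2, it was lower by more than that error. The median was 0.14 to 0.30 over 11 processing settings, and 0.16 to 0.21 above that of all genes. Set against siControl in place of miControl it was 0.02, and that value depended on the scaling.

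The small shift was found in most parts of the particle. Its median was 0.11 in the alpha ring (6 of 7 above 0), 0.19 in the beta ring (7 of 8), 0.18 in the base ATPases (5 of 6) and 0.26 in the lid (7 of 8). All 4 activator genes lay between 0.05 and 0.19, with PSME1, PSME2 and PSME3 below the software error. The 2 probes of PSME4 gave 0.51 and -0.12. The 3 base non-ATPase genes PSMD1, PSMD2 and PSMD4, whose products form the scaffold and a ubiquitin receptor of the cap, had a median of -0.02, with 1 of 3 above 0.

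**Figure D1:**
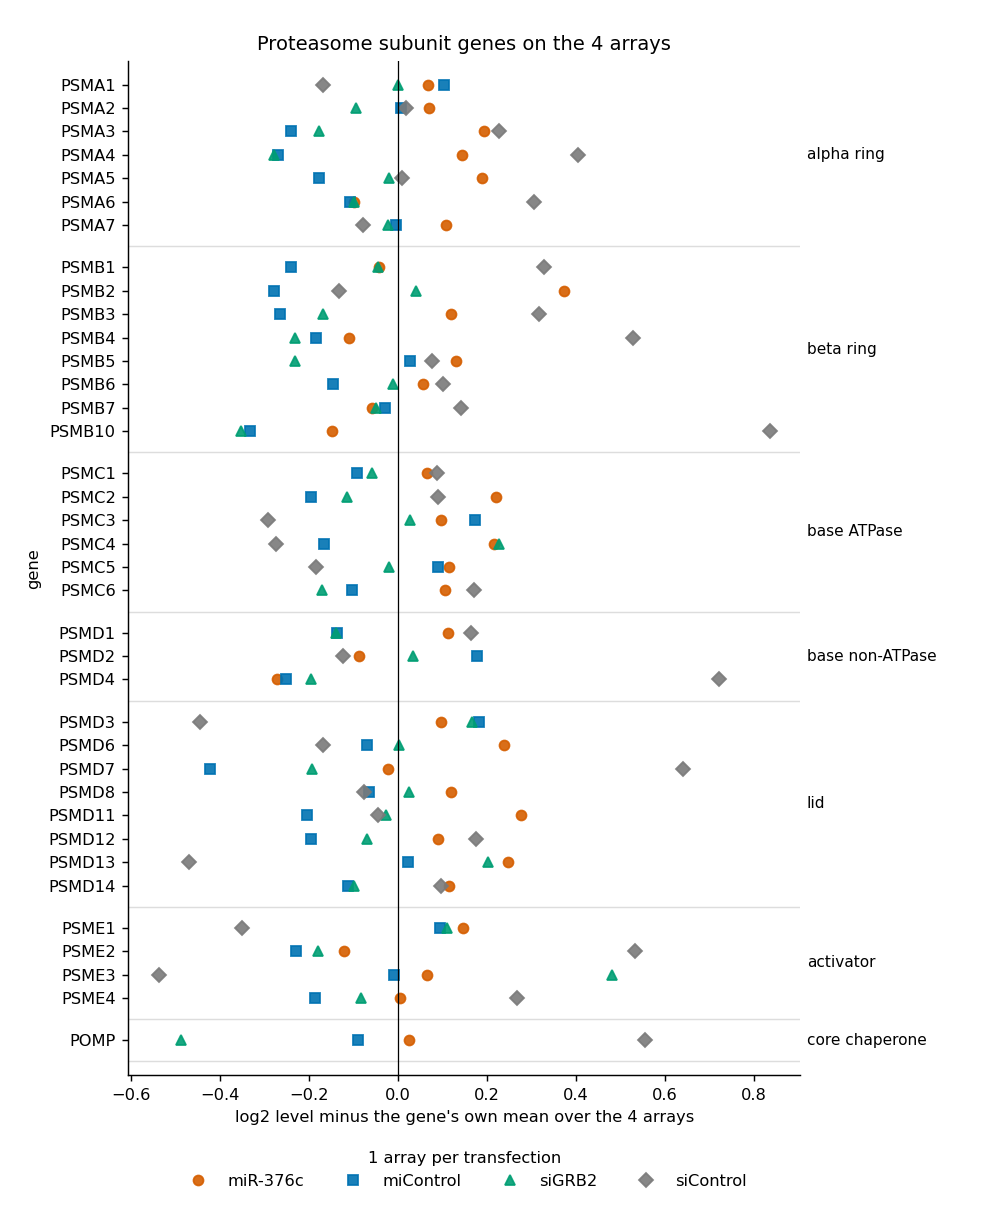
Each row is 1 proteasome gene, and each symbol is its log2 level on 1 array minus the gene's mean over the 4 arrays (x axis), for miR-376c (circle), miControl (square), siGRB2 (triangle) and siControl (diamond). Circles lie right of squares in 31 of 37 rows, and the diamonds lie farthest out, on the right for PSMB10, PSMD4 and PSMD7 and on the left for PSME3, PSMD13 and PSMD3.

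In the alpha ring, which gates the entry to the core, the levels of PSMA3 were 4.60 with miR-376c, 4.17 with miControl, 4.23 with siGRB2 and 4.64 with siControl. The miR-376c and siControl arrays were thus high and the other pair low. The difference from the own control was 0.43 with miR-376c and -0.40 with siGRB2, each about the size of the control difference of -0.47 (miControl minus siControl).

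PSMA4 was also high on the miR-376c and siControl arrays and low on the other pair, at 3.45, 3.04, 3.03 and 3.71 with miR-376c, miControl, siGRB2 and siControl. PSMA5 was 0.37 higher with miR-376c than with miControl and within 0.03 between siGRB2 and siControl. PSMA2, PSMA6 and PSMA7 differed by 0.01 to 0.11 between miR-376c and miControl, less than the software error. For PSMA1 that difference was -0.03, as the mean of 2 probes that gave 0.11 and -0.17. The first probe was bright, with a level of 3.92 on the miR-376c array, and the second dim, with -3.06.

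The beta ring holds the proteolytic sites. PSMB5 codes for the chymotrypsin-like subunit, and its levels were 3.21 with miR-376c, 3.11 with miControl, 2.85 with siGRB2 and 3.16 with siControl. PSMB6, the caspase-like subunit, stood at 4.39, 4.18, 4.32 and 4.43 on the same arrays, and PSMB7, the trypsin-like subunit, at 4.89, 4.92, 4.90 and 5.09. These 3 standard catalytic genes differed by 0.10, 0.20 and -0.03 between miR-376c and miControl, each less than the software error. Between siGRB2 and siControl they differed by -0.31, -0.11 and -0.19, and only PSMB5 passed that error. PSMB5 was the one of them that was lowest on the siGRB2 array, 0.26 below miControl and 0.36 below miR-376c.

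PSMB10 is the inducible counterpart of PSMB7. Its levels were 4.34 with miR-376c, 4.15 with miControl, 4.13 with siGRB2 and 5.32 with siControl. Only the siControl array was high, and the other 3 lay within 0.20 of each other. The siGRB2 difference from its own control was therefore -1.19 (2.28-fold), against -0.02 from miControl. PSMB10 was measured by 1 probe with 1 spot.

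Of the non-catalytic beta genes, PSMB2 was at 3.04 with miR-376c, 2.39 with miControl, 2.71 with siGRB2 and 2.54 with siControl, highest on the miR-376c array by 0.33 or more. Its miR-376c difference from miControl was 0.65 (1.57-fold), and its 2 probes gave 0.71 and 0.60. PSMB3 was 0.39 higher with miR-376c than with miControl and at -0.49 for siGRB2 minus siControl. PSMB4, which helps to close the core, read 5.27, 5.19, 5.14 and 5.90 on the miR-376c, miControl, siGRB2 and siControl arrays, so only siControl was high. PSMB1 differed by 0.20 between miR-376c and miControl.

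The 6 base ATPases form the ring that unfolds the substrate. Between miR-376c and miControl, PSMC2 differed by 0.41 and PSMC4 by 0.38, PSMC6 by 0.21, PSMC1 by 0.16 and PSMC5 by 0.03, while PSMC3 was at -0.08. PSMC4 was also 0.39 higher with siGRB2 than with miControl, and 0.50 higher with siGRB2 than with siControl. No ATPase gene reached 1.5-fold in any pair of arrays.

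In the rest of the cap, PSMD11 (lid) had the second highest difference of all members between miR-376c and miControl, 0.48, and was at 0.02 for siGRB2 minus siControl. PSMD7, a lid partner of the deubiquitinating subunit PSMD14, was measured by 10 spots, and its levels were 2.38 with miR-376c, 1.98 with miControl, 2.21 with siGRB2 and 3.04 with siControl. Its 10 spots had an SD of 0.07 to 0.08 on each array, so its differences of 0.40 (miR-376c minus miControl) and -0.83 (siGRB2 minus siControl) were larger than the spread between spots. PSMD6, the other member with 10 spots, was 0.31 higher with miR-376c than with miControl and 0.17 higher with siGRB2 than with siControl, against spot SDs of 0.04 to 0.05. PSMD14, PSMD12, PSMD8 and PSMD13 were 0.18 to 0.29 higher with miR-376c than with miControl, and PSMD3 was 0.09 lower.

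Among the 4 activator genes, PSME3, which codes for the nuclear activator PA28 gamma, was at 0.68 with miR-376c, 0.61 with miControl, 1.10 with siGRB2 and 0.08 with siControl. It was the highest of all members with siGRB2 against both controls, 1.02 above siControl (2.03-fold) and 0.49 above miControl. PSME2, a subunit of the interferon-inducible PA28 activator, was at 5.25, 5.15, 5.19 and 5.91 on the miR-376c, miControl, siGRB2 and siControl arrays. PSME1, its partner in the same ring, was at -0.07, -0.12, -0.10 and -0.56. On the siControl array PSME2 was thus high and PSME1 low, and on the other 3 each varied by 0.11 or less.

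POMP, which helps beta subunits to assemble, was at -2.65 with miR-376c, -2.76 with miControl, -3.16 with siGRB2 and -2.12 with siControl. It was lowest on the siGRB2 array, 1.04 below siControl (2.06-fold) and 0.40 below miControl, and it was the lowest member in the comparison with miControl. POMP also had the lowest level of all members, from 1 spot with a processed signal of 223 on the siGRB2 array, still well above background. Of the 2 probes of PSMA1, the dim one went lower, to 134 on the siControl array.

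With siGRB2, the proteasome genes as a list were lower than with siControl and level with miControl. Against siControl the median was -0.19 over the members and 0.11 over all genes, and 14 of 37 members were above 0 where 58.6% of all genes were. PSMB10, POMP and PSME3 differed by at least 2-fold (3 of 37, against 6.74% of all genes). At 1.5-fold, 3 members were higher (PSME3, PSMD13 and PSMD3, against 17.6%) and 7 lower (PSMB10, POMP, PSMD4, PSMD7, PSMB4, PSME2 and PSMA4, against 10.9%). The beta ring had a median of -0.34, with 1 of 8 genes above 0, and the lid one of 0.06. The median against siControl depended on the scaling. It was -0.0093 with quantile normalization, 0.0185 with normexp background correction, where 0 members were 2-fold apart, and -0.47 with a median shift.

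Against miControl, the siGRB2 median was 0.03, the same as that over all genes. The difference was above 0 in 22 members (55.8% of all genes), 0 members reached 2-fold (0.934%) and 0 reached 1.5-fold (5.1%). The 2 comparisons use the same siGRB2 array, and their negative controls set them apart.

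The 2 negative control arrays themselves differed, with an SD of the differences of 0.45 over the members and 0.53 over all genes. In miControl against siControl the median was -0.19 over the members and 0.08 over all genes, and 12 members were above 0 against 56% of all genes. PSMB10 (-1.17) and PSMD7 (-1.06) were at least 2-fold apart (5.7% of all genes). At 1.5-fold, 1 member was higher, PSMD3 (14.7%), and 7 were lower (10.4%). This median too was near 0 with quantile normalization (-0.0051) and normexp (-0.0147). All 8 beta ring genes were lower with miControl than with siControl, from -0.05 for PSMB5 to -1.17 for PSMB10. For PSMB5 and PSMB7 (-0.17) the difference was smaller than the software error, and the 2 probes of PSMB2 gave 0.04 and -0.33.

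Against siControl, miR-376c had a median of 0.02 over the members and 0.06 over all genes. The difference was above 0 in 19 members (55.2% of all genes), 0 members reached 2-fold (4.57%), and the range was from -0.99 for PSMD4 to 0.72 for PSMD13. This median was 0.18 with quantile normalization and with normexp and -0.14 with a median shift, and 2 members were 2-fold apart with the median shift and in the deposited log2 table. Each of the 4 comparisons above shares an array with another of them, and they are given side by side for that reason.

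**Figure D2:**
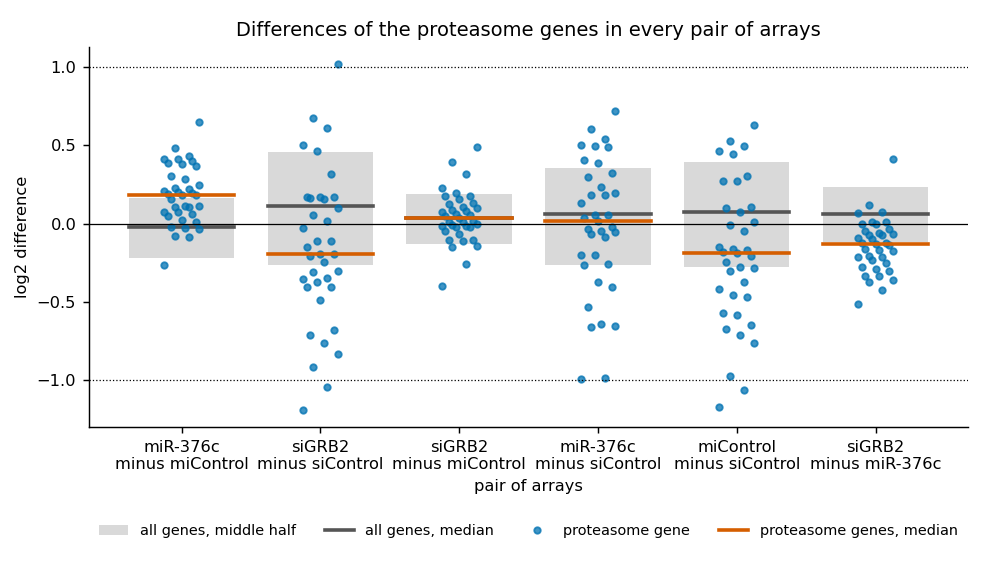
The y axis is the log2 difference in each of the 6 pairs of arrays (x axis). Points are the 37 proteasome genes, the orange line is their median, the grey line the median of all 13602 genes and the grey band their middle quartiles, and dotted lines mark 2-fold. The points are narrow in the 3 pairs without siControl (SD 0.17 to 0.19) and wide in the 3 with it (SD 0.43 to 0.49). Over all genes the SD was 0.30 to 0.34 without siControl and 0.50 to 0.55 with it.

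Set directly against miR-376c, the siGRB2 array was lower in most proteasome genes. Of the 37 members 30 were below 0 and 7 above, where 58.9% of all genes were above 0. The median was -0.13 against 0.06 over all genes, 0 members reached 2-fold (0.956%) or 1.5-fold (6.04%), and 14 members were lower by more than the software error (18.1% of all genes). Among genes above the 75th percentile on every array, 7 of 34 members were above 0 against 53.4%. The medians were -0.17 in the alpha ring, -0.16 in the beta ring, -0.13 in the ATPases, -0.17 in the lid and -0.05 in the activators, while the base non-ATPase genes had 0.08, with 2 of 3 above 0. The lowest were POMP (-0.51), PSMA4 (-0.42), PSMA3 (-0.37) and PSMB5 (-0.36), and PSME3 was highest (0.42). This comparison shares the miR-376c array with the one against miControl, so the higher values on that array enter both.

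The siControl array stood apart gene by gene and in both directions. It was the highest of the 4 arrays for 18 members (31.1% of all genes), the lowest for 12 (43.3%) and in between for 7. Relative to the mean of the other 3 arrays, its level was higher for PSMB10 by 1.11, for the ubiquitin receptor PSMD4 by 0.96, for PSMD7 by 0.85, for POMP by 0.74, for PSME2 by 0.71 and for PSMB4 by 0.70. It was lower for PSME3 by 0.72, for PSMD13 by 0.63 and for PSMD3 by 0.59. The SD of siControl minus that mean was 0.45 over the members and 0.50 over all genes. The other 3 arrays spanned a median of 0.22 per member, against 0.29 over all genes.

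PSMD4, on its 4 arrays, was at 4.24 with miR-376c, 4.26 with miControl, 4.32 with siGRB2 and 5.24 with siControl. PSMD13 was at 2.18, 1.96, 2.14 and 1.46 in the same order, and PSMD3 at 1.53, 1.61, 1.59 and 0.98. Both products are lid subunits, and siControl was the low array for both and the high one for PSMD4. For each of these genes, both treatments' differences from siControl rest on 1 spot of that array.

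Where a member had 2 probes, these differed in how they placed siControl. The gap between the 2 probes of a gene had a median of 0.85 (0.25 to 1.30) for siGRB2 minus siControl over the 7 genes concerned, 0.17 (0.05 to 0.63) for miR-376c minus miControl and 0.12 (0.01 to 0.47) for siGRB2 minus miControl. For PSMD1, a base scaffold, one probe gave levels of 3.41, 3.25, 3.18 and 4.14 with miR-376c, miControl, siGRB2 and siControl, and the other 0.95, 0.62, 0.68 and 0.33. The first was thus highest and the second lowest on siControl, and the siGRB2 differences were -0.96 and 0.35. PSMD2, PSMA1, PSME4 and PSMB2 also had probes with opposite signs in that comparison (0.36 and -0.02 for PSMB2). The gene means of these 5 for siGRB2 minus siControl therefore differ in sign from 1 of their probes, and what sets the probes apart was not tested.

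**Figure D3:**
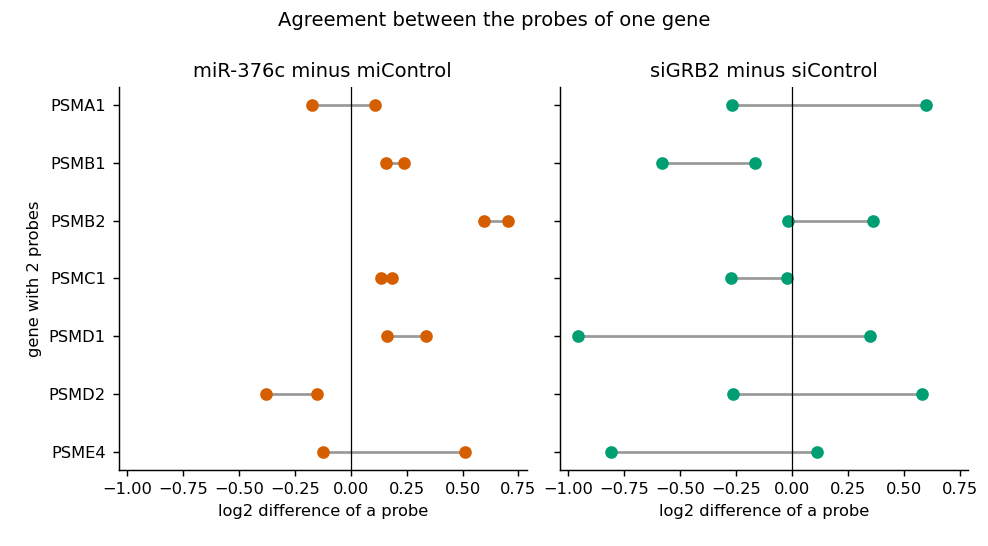
For the 7 proteasome genes with 2 probes (y axis), each point is the log2 difference given by 1 probe (x axis), for miR-376c minus miControl on the left and siGRB2 minus siControl on the right, and a line joins the probes of a gene. The lines are short on the left except for PSME4 (0.63) and long on the right, up to 1.30 for PSMD1.

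Genes that work with the proteasome were followed in lists. Of the assembly chaperones 7 of 8 were measured, with a median of 0.07 for miR-376c minus miControl and 0.12 for siGRB2 minus siControl, and 0 were 1.5-fold apart with miR-376c. With siGRB2 against siControl PSMG2, which pairs alpha subunits, was 0.94 higher and PSMG4 0.72 lower, against 0.09 and 0.06 from miControl. Of 13 proteasome-associated genes (13 of 14 measured), 0 were 1.5-fold apart with miR-376c (median 0.00), and with siGRB2 against siControl the ubiquitin receptor ADRM1 (0.74) and the ubiquitin ligase UBE3C (0.60) were higher and the small lid subunit SEM1 (-0.68) lower. Their siGRB2 differences from miControl were 0.37, -0.24 and 0.06. The slight upward shift of the subunit genes with miR-376c was not seen in the medians of these 2 lists, and no test of that difference was possible.

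Of the inducible subunits outside the 37, PSMB9 was at 0.30 for miR-376c minus miControl and PSMB8 at -0.02. For siGRB2 minus miControl they were at -0.17 and -0.16, each smaller than the software error, against a median of 0.03 over the members. PSMB9 was at 3.05 with miR-376c, 2.76 with miControl, 2.58 with siGRB2 and 3.04 with siControl, and PSMB8 at 1.32, 1.34, 1.18 and 1.21. PSMB11 and PSMA8, restricted to thymus and germ cells, were not well above background on all 4 arrays. Of 10 antigen processing genes, ERAP1, which trims peptides made by the proteasome, was 0.85 higher with miR-376c than with miControl, and the peptide transporter gene TAP2 was at -0.81 for siGRB2 minus siControl. The list medians were 0.05 and 0.10. Of 9 measured interferon-induced genes, GBP1 was higher with both treatments against their own controls, by 0.74 with miR-376c and 0.66 with siGRB2, and MX1 was 0.74 lower with siGRB2. The interferon medians were -0.08 and 0.19, so PSMB10 and PSME2, which interferon induces, stood high on siControl beside MX1 but without the list as a whole.

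Of the ubiquitin genes and their E1 enzymes all 6 were measured, with medians of 0.12 for miR-376c minus miControl and 0.04 for siGRB2 minus siControl. UBA1, the main E1, was 0.75 higher with siGRB2 than with siControl and 0.26 higher than with miControl. Of 5 measured regulators of proteasome genes, NFE2L1 was at 3.004, 2.89, 2.96 and 3.19 with miR-376c, miControl, siGRB2 and siControl. DDI2, the protease that activates NFE2L1, was at -4.74, -3.76, -4.61 and -4.48 on these arrays, 0.98 lower with miR-376c and 0.85 lower with siGRB2 than with miControl, and only miControl was high. DDI2 was measured by 1 dim probe, and the software errors of these differences were 0.23 and 0.22. NFE2L2 was not well above background. The 8 members with a TGACNNNGC match before the start are those named with the sequences, and no comparison of them with the other members was made.

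**Figure D4:**
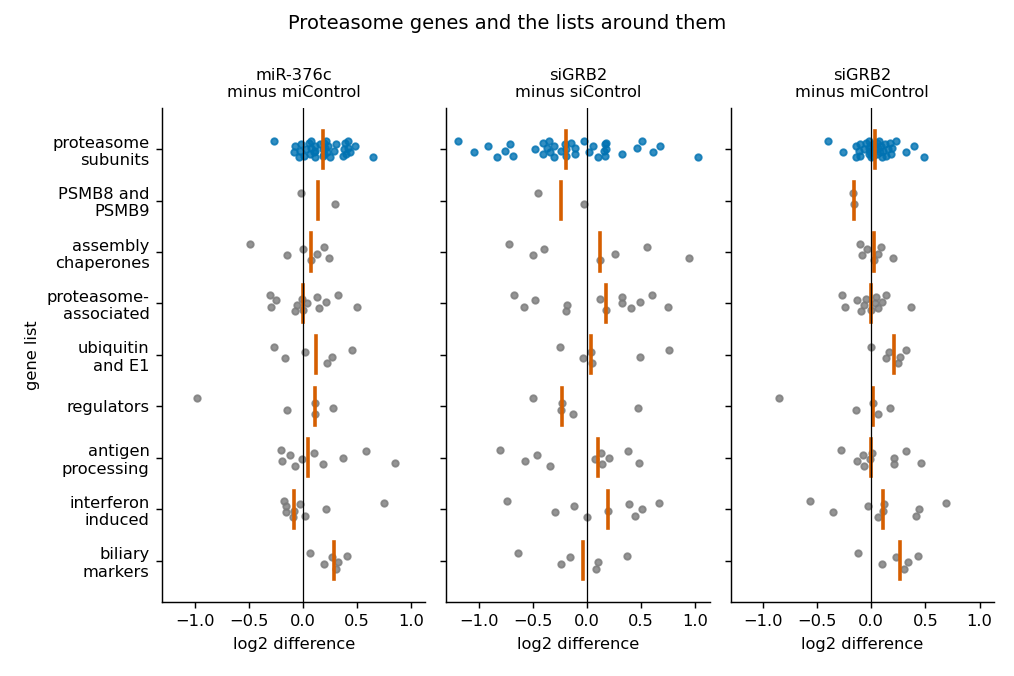
Each point is 1 gene of the list named on the y axis, and its place on the x axis is the log2 difference for miR-376c minus miControl, siGRB2 minus siControl and siGRB2 minus miControl. Orange lines are list medians. In the left panel the line lies at 0.19 for the proteasome genes, between 0.14 and -0.08 for the 7 lists below them, and at 0.29 for the 6 biliary markers.

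Compared with miControl, the biliary epithelial markers were higher on the miR-376c array too. All 6 were higher with miR-376c than with miControl, with a median of 0.29, and KRT7 differed most, by 0.40. They were also higher with siGRB2 than with miControl in 5 of 6 (median 0.26), where the proteasome genes were level. The marker median was 0.01 for siGRB2 minus miR-376c and 0.06 for miR-376c minus siControl. SOX9 was at -0.64 for siGRB2 minus siControl. Their part in the result was not tested.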

How the data were processed

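RNA of 4 transfections was hybridized to Agilent Human GE 4×44K v2 arrays, 1 per group, all on 1 slide. The authors deposited the spot intensity values of Agilent Feature Extraction (10.7.3.1), with quality flags, and a table of log2 values shifted to the 75th percentile in GeneSpring GX. Each column of that table equalled the log2 processed signal minus a constant, within 0.01 for 99.5% of probes, and 0 columns were left unmatched.

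From these files, the log2 processed signal of each spot was expressed relative to the 75th percentile of the 43118 spots of its array that are not controls. Spots with an outlier flag (289 to 329 per array) were dropped, and a probe was the mean of its spots. A probe was used when well above background on more than 0.5 of its spots on all 4 arrays, and a gene was the mean of its probes. Accessions named 25422 of 34127 probes (74.5%), using RefSeq genes of GRCh38.p14 for names only, since the array files follow another build. Calculations used Python (3.11.15), numpy (2.4.6), pandas (2.3.3), R (4.3.3) and limma (3.58.1), and the counting step was tested on simulated data. With 1 array per group no test was made, and counts and medians over the members were set beside those over all genes. The software error of a difference is the root of the summed squared errors of its arrays.

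The members and gene lists were chosen with earlier results of these data known. Values on all 4 arrays are given for PSMB5, PSMB6, PSMB7, PSMB10, PSMA3 and each member at least 1.5-fold apart in any pair. Genes of other lists are named when 1.5-fold apart between a treatment and its own control, and values of genes outside this rule were chosen after they were seen. The alternatives covered the scaling (quantile, median, detected probes), the background (normexp, offset 50, on median spot intensity), the deposited log2 values, the filters, the probe rules, the 1.5-fold limit and the control used.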

Additional observations from a re-analysis of the deposited data

How the results depend on the processing

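No paired analysis was possible because each group has 1 array, and for the same reason no replicate could be left out. Over 11 processing settings the members' median for miR-376c minus miControl was 0.14 to 0.30, and 0.16 to 0.21 above the median of all genes. For siGRB2 minus miR-376c it was -0.26 to -0.13, and 0.15 to 0.19 below all genes. Of the members named for their values, those at least 1.5-fold apart in a comparison of a treatment with its own control kept their sign there, while PSMB7, PSMD3 and PSMD4 for miR-376c and PSMB2, PSMB6 and PSMB7 for siGRB2, all nearer to 0, changed sign under at least 1 setting. The medians against siControl depended on the scaling. With quantile normalization they were -0.0093 for siGRB2, 0.18 for miR-376c and -0.0051 for miControl, with 0 members 2-fold apart in the last. With a median shift, which moves all genes together, they were -0.47, -0.14 and -0.46, with 5, 2 and 4 members 2-fold apart, and the medians for miR-376c minus miControl and siGRB2 minus miR-376c were 0.30 and -0.26. With normexp and an offset of 50 they were 0.0185, 0.18 and -0.0147, with 0 members 2-fold apart for siGRB2 and for miControl. A version with the background of flagged spots set to the array median, chosen after seeing the data, gave 0.0239, 0.20 and -0.0161, with 0 and 0 members. A percentile over detected probes gave 0.0771 for miR-376c minus siControl, -0.0849 for miControl minus siControl with 1 member 2-fold apart, and -0.0215 for siGRB2 minus miControl. The deposited log2 table gave -0.27 for siGRB2 and -0.26 for miControl, with 2 members 2-fold apart for miR-376c, all against siControl, and the brightest probe of a gene gave -0.26 for miControl minus siControl. At a 1.5-fold limit, 1 member was apart for miR-376c minus miControl, and 10, 7 and 8 for siGRB2, miR-376c and miControl minus siControl. Against the other negative control, the medians were 0.0186 for miR-376c and 0.0334 for siGRB2. The cause was not tested. Every value rests on 1 culture per group, and most members on 1 spot.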
